A study of Macaca mulatta with 25 samples.

Results

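Embryos of rhesus macaques fed a Western-style diet (WSD) were compared with embryos of control females (C) by RNA sequencing of blastocysts. The comparison rests on 8 WSD libraries (1, 3, 4, 6, 7, 8, 9 and 10) and 5 C libraries (1, 2, 8, 11 and 12), 13 of the 25 libraries of the series, taken by the group given in their titles. WSD females ate an obesogenic feed with 36% fat, 46% carbohydrate and 18% protein, and the labels name no implant for them. C females carried cholesterol implants and ate standard chow with 15% fat, 59% carbohydrate and 26% protein. Each group enrolled 10 females at about 2.5 years of age, shortly before puberty, and treatment lasted 5 to 6 years. Ovarian stimulation was then possible in 6 WSD and 10 C females. Other females could not be stimulated because of health problems, mostly endometriosis. Eggs were fertilised in vitro, with 4 males as semen donors, and culture lasted at most 8 days. The labels tie no library to a mother, a father or a collection day, nor do they say whether 1 library is 1 embryo. With 6 stimulated WSD females behind 8 libraries, p-values measure the spread between libraries, some of which may share a mother. The edgeR tests below take that spread from all 25 libraries of the 4 groups, not from WSD and C alone.

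The blastocyst is the stage at which the embryo has formed a fluid-filled cavity and its first lineages. The trophectoderm is the outer epithelium that will form placenta and mediates implantation. The inner cell mass splits into epiblast, the source of the body, and primitive endoderm, which lays down basement membrane and forms the yolk sac. Cells divide rapidly at this stage and depend on pyruvate, glucose, amino acids and stored lipid.

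Total counts were 15005205 to 35544542 in WSD and 15272016 to 27659266 in C libraries (exact two-sided permutation p = 0.65 over 1287 splits). At least 1 count was found for 14247 to 21037 genes in WSD and 16834 to 19640 genes in C libraries (exact two-sided permutation p = 0.878). The WSD libraries resembled each other, with correlations of log2 CPM (CPM, the count divided by the library's TMM-scaled total per 1e6 reads) of 0.868 to 0.949 over 28 pairs, against 0.651 to 0.876 over the 10 pairs of controls. C 8, C 11 and C 12 stood apart on the first principal component (32.2% of the variance), at 51.3, 91.0 and 223. The other controls were at -46.2 and -35.9, and the WSD libraries were between -45.4 and -18.4. Many changes and list medians below are therefore also given without C 8, C 11 and C 12, a comparison with 2 controls that has little power. Y-linked genes summed to 432 CPM or more in 5 of 8 WSD and 4 of 5 C libraries, and to 1.73 CPM or less in the others.

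Markers of the labelled tissue were high in every WSD library but not in every control. CDX2, a trophectoderm factor, was at 80.7 to 285 CPM in WSD embryos (median 169), against 122, 263, 149, 51.1 and 1.57 CPM in controls 1, 2, 8, 11 and 12, the order used for control values throughout. Summed over 21 trophectoderm markers, levels were 7313 to 25292 CPM in WSD, against 2918, 16890, 18073, 6175 and 5634 CPM in controls. By that sum C 1 was the lowest library, and C 11 and C 12 also lay below the WSD range. POU5F1, which maintains the epiblast, was at 242 to 706 CPM in WSD embryos (median 430), against 1068, 525, 206, 8.51 and 0.627 CPM in controls. POU5F1 was thus low in the libraries labelled C 11 and C 12. Summed over 23 tested epiblast markers, levels were 2205 to 4820 CPM in WSD, against 4592, 3962, 4731, 1245 and 6184 CPM in controls, with DNMT3L the main part of the value in C 12. On the mean log2 CPM of these markers, where 1 gene weighs less, WSD libraries lay between 4.79 and 6.14. Controls were at 5.13, 5.63, 5.13, 2.39 and 2.25, so C 11 and C 12 were low by that measure. C 11 also carried stromal and primitive endoderm transcripts. The summed level of 12 stromal fibroblast markers was 13994 CPM there, against 8.76 to 143 CPM in WSD and at most 123 CPM in the other controls. The collagen-binding genes DCN and LUM reached 715 and 974 CPM in C 11, while neither passed 2.11 CPM in a WSD library. Placental hormone genes summed to 666 to 1243 CPM in WSD, against 352, 1018, 13979, 5991 and 10792 CPM in controls. Primitive endoderm markers summed to 2640 to 6745 CPM in WSD, against 1196, 4043, 5828, 35744 and 4587 CPM in controls, with APOA1 and FN1 the main part in C 11.

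Markers of other cells were also uneven. The 15 cumulus and granulosa markers summed to 77.1 to 345 CPM in WSD, against 503, 185, 2759, 2003 and 1072 CPM in controls. CYP11A1, which trophoblast also expresses, was the main part in C 8, and the granulosa receptor FSHR was at 0 in every control. Of the 6 tested 2 fell (CYP11A1 and VCAN), and their median log2 change was -2.21, or 0.12 without C 8, C 11 and C 12. The 10 blood cell markers found summed to 18.6 to 45.2 CPM in WSD, against 27.9, 40.4, 31.8, 258 and 19.5 CPM in controls, with CD14 the main part in C 11 and the leukocyte gene PTPRC at no more than 1.47 CPM in any of the 13 libraries. The 12 sperm transcripts summed to 98.0 to 214 CPM in WSD, against 117, 106, 98.3, 210.01 and 489.6 CPM in controls, with CABYR the main part in C 12 and the protamine PRM1 at or near 0 in all 13 libraries. How far these differences in cell content bear on the results below was not tested. Fewer cells of a type and less RNA per cell cannot be told apart in these samples.

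In WSD embryos 65 genes rose (0.466% of 13934 tested) and 502 fell (3.6%), together 4.07%. The counts of list members below are to be set beside these shares. The lists were written with earlier results of these data known. Every adjusted p below comes from a quasi-likelihood F-test in edgeR, adjusted over all 13934 genes by the method of Benjamini and Hochberg. The fit pools the spread over all 25 libraries of the 4 groups. With WSD and C libraries alone in the fit 30 genes passed (2 higher, 28 lower), and with limma voom and quality weights 0 passed. The word "rose" or "fell" is kept for genes with an adjusted p under 0.05. Over all tested genes the median log2 change was -0.12 (-0.19 with RLE size factors, -0.01 with library totals), and 0.06 without C 8, C 11 and C 12. The risen genes had a median log2 change of 1.25, and of 1.03 without those 3 controls, where 65 of 65 lay above 0. The fallen genes had a median of -2.39, and of -0.22 without them, where 328 of 502 lay below 0. Both sets were chosen with the same WSD libraries and C 1 and C 2, so their signs there are partly given by the choice. Calls leaned on C 12. Without it 4 of the risen and 50 of the fallen genes kept their call. Across 13 fits that each left out 1 WSD or C library, 3 risen genes, CKAP5 and POLA1 among them, and 29 fallen genes passed every time. Leaving out 1 WSD library left 292 to 414 calls in all, fewest without WSD 7. In the fit without C 8, C 11 and C 12, 1 gene passed, ADIPOR1, beside 914 at an unadjusted p under 0.05.

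The controls carried the 2 directions differently. For the fallen genes, C 1 and C 2 lay a median of 0.20 and 0.34 above the median WSD library on the log2 scale, against 1.58 for C 8, 1.70 for C 11 and 3.54 for C 12. C 12 was the highest control for 353 of the 502. C 1 and C 2 lay inside the WSD range for 305 and 344 of them. For the risen genes, chosen from these same libraries, every control had a median below the median WSD library: -0.84, -1.08, -0.91, -1.72 and -2.18. C 1 and C 2 lay below all 8 WSD libraries for 39 and 54 of the 65 risen genes, and C 12 for 59.

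**Figure D1:**
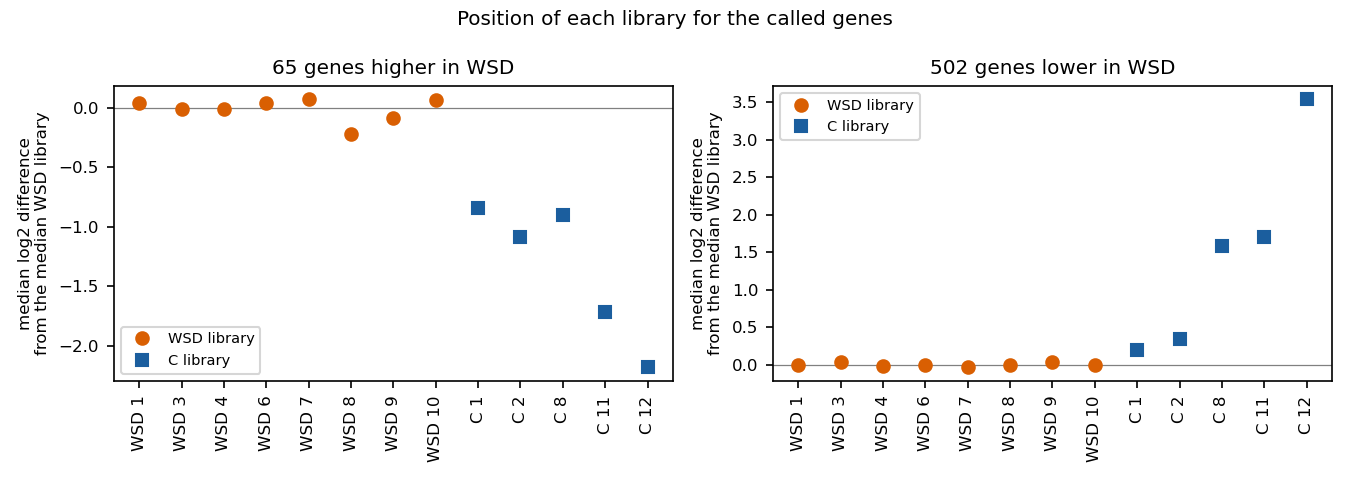
Median log2 difference of each library from the median WSD library (log2 CPM + 0.5, vertical axis), over the 65 genes higher in WSD (left) and the 502 genes lower in WSD (right); circles are WSD libraries and squares C libraries. All 5 controls sit between -2.18 and -0.84 for the risen genes, while for the fallen genes C 1 and C 2 sit at 0.20 and 0.34 and C 12 at 3.54; these genes were chosen from the same libraries, so the sign of the group difference is given by the choice.

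For 64 genes (0.459%) every WSD library lay above every control, and for 33 (0.237%) every WSD library lay below, in all 0.696%. Of these, 28 of the 64 rose and 24 of the 33 fell. Past the edge of the WSD range, this count does not depend on how far off C 12 was, but it does depend on the scaling. With RLE size factors 48 genes were higher and 47 lower, and with library totals 77 and 27. The 64 genes had a median log2 change of 1.18, or 1.00 without C 8, C 11 and C 12. The 33 lower genes had medians of -1.66 and -0.82. The signs of these medians are given by the choice of genes.

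CTNNA1 (ENSMMUG00000017985), alpha-catenin, which links E-cadherin to actin in epithelial junctions, was at 282 to 709 CPM in WSD embryos (median 523), against 178, 177, 275, 250 and 198 CPM in controls. Its groups did not overlap, and the nearest libraries were close. CTNNA1 rose by 1.23 ± 0.28 (SE) on the log2 scale (adjusted p = 0.014; 0.0606 without C 12), and the change was 1.53 without C 8, C 11 and C 12. ANLN, anillin, a scaffold of the cleavage furrow, was at 245 to 698 CPM in WSD embryos (median 330), against 120, 193, 265, 163 and 128 CPM in controls. C 8 alone among the controls reached into the WSD range. ANLN rose by 1.12 ± 0.28 (adjusted p = 0.0246), a call lost without C 12 (adjusted p = 0.109) or WSD 6, and the change was 1.29 without C 8, C 11 and C 12.

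Of 26 tested genes of epithelial junctions, CTNNA1 rose and none fell. Their median log2 change was 0.47, and 0.42 without C 8, C 11 and C 12, with 20 of 26 above 0 either way. DSG2, a desmosomal cadherin of the same list, did not overlap between groups and did not pass (0.77, adjusted p = 0.0837). Further actin genes, picked after their values were seen, were SPTAN1 (alpha-spectrin, 1.15), MYO9A (an unconventional myosin, 1.44) and ROCK1 (a kinase of actomyosin contraction, 0.91), all risen with adjusted p up to 0.0388. Those 3 calls were lost without C 11 or C 12 and without any of WSD 1, WSD 3, WSD 6 and WSD 7, at adjusted p up to 0.137. VCL, vinculin, did not overlap either and did not pass (1.00, adjusted p = 0.128).

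**Figure D2:**
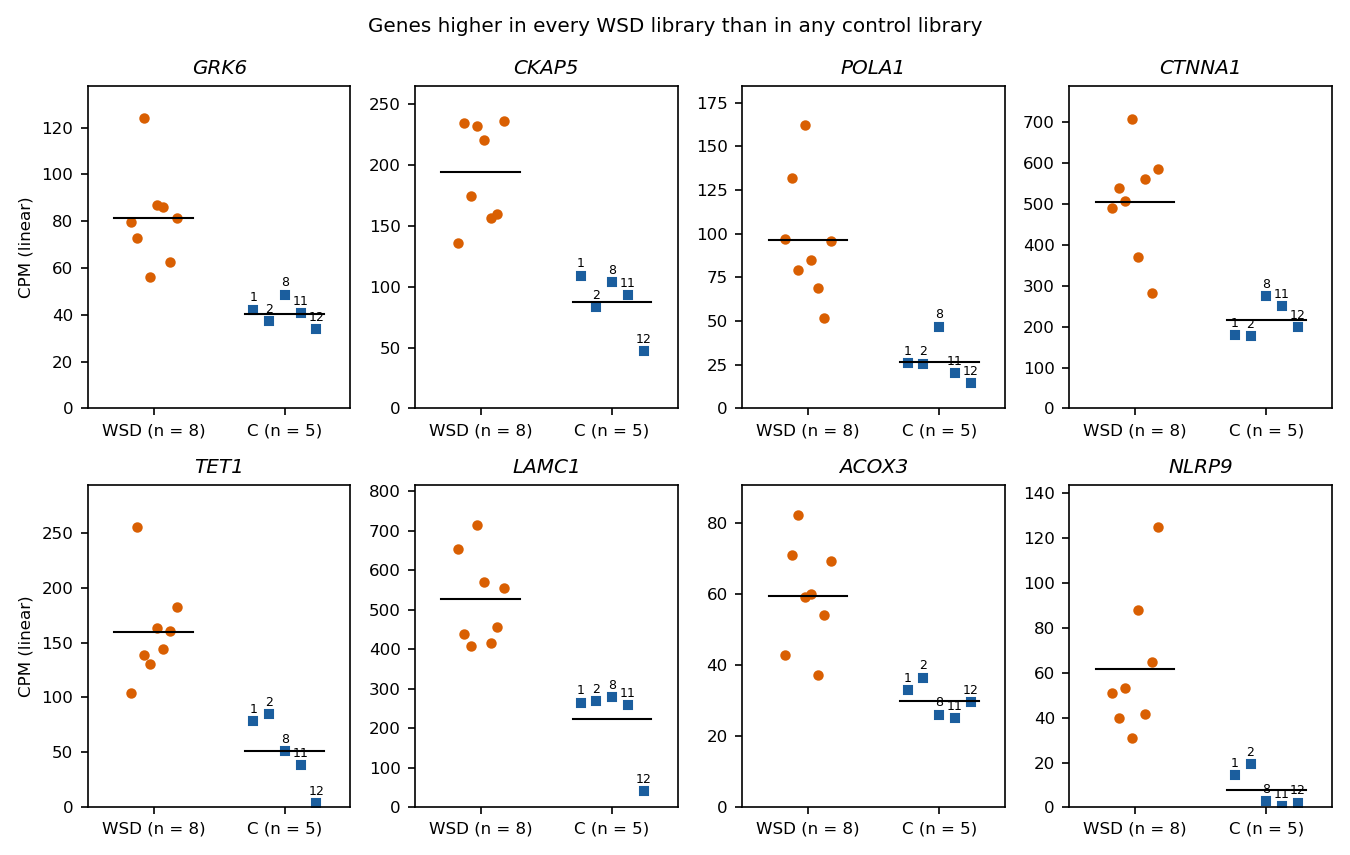
Level in CPM (linear axis from 0) of 8 genes in each of the 8 WSD (circles) and 5 C libraries (squares, numbered by replicate), with the group mean as a line. In all 8 panels every WSD library lies above every control; GRK6 controls sit at 33.9 to 48.6 CPM, while for LAMC1 and TET1 C 12 lies far below the other controls.

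Among DNA replication genes, POLA1 (ENSMMUG00000018433), the catalytic subunit of the polymerase that primes new strands, was at 51.9 to 162 CPM in WSD embryos (median 90.3), against 25.7, 25.6, 46.8, 20.1 and 14.4 CPM in controls. Every WSD library was above every control. POLA1 rose 3.64-fold (1.86 ± 0.36, adjusted p = 0.00712), and the change was 1.93 without C 8, C 11 and C 12. MCM10, which helps to start the replication fork, was at 178 to 351 CPM in WSD embryos (median 247), against 173, 142, 124, 49.9 and 20 CPM in controls. C 1 nearly met the lowest WSD library. MCM10 rose by 1.34 ± 0.33 (adjusted p = 0.0236), but its change was 0.73 without C 8, C 11 and C 12, and the call was lost without C 11 or C 12 (0.0546 without C 12). The helicase subunits MCM4 and MCM6 rose as well, by 0.75 and 1.09 (adjusted p = 0.0325 and 0.0366), with C 1 inside the WSD range for both. Both lost their calls without C 11 or C 12 and without any of WSD 1, 4, 7, 8 and 10 (adjusted p up to 0.122), and without C 8, C 11 and C 12 their changes were 0.59 and 0.65. In all, 4 of 38 tested replication genes rose and 0 fell (0.466% and 3.6% over all genes). Their median was 0.41 with all controls and 0.05 without C 8, C 11 and C 12, beside 0.06 for all genes. POLA1 was the 1 member still called without C 12.

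Of 38 tested mitotic genes 7 rose (0.466% over all genes) and 31 were not called. CKAP5 (ENSMMUG00000003631), a polymerase of spindle microtubules, was at 136 to 237 CPM in WSD embryos (median 198), against 109, 83.4, 104, 93.1 and 47.3 CPM in controls. The groups did not overlap. CKAP5 rose 2.22-fold (1.15 ± 0.22, adjusted p = 0.00665) and passed without any single library, at an adjusted p of at most 0.0273. Over the 21 alternative fits it passed in 17. It did not pass with limma voom or with a block for replicate number, where no gene did. Nor did CKAP5 pass without C 8, C 11 and C 12 (change 1.03, adjusted p = 0.421). CENPF, a kinetochore protein, was at 149 to 221 CPM in WSD embryos (median 182), against 89.3, 107, 114, 12.1 and 21 CPM in controls. All controls were below the WSD range, C 11 and C 12 by far. CENPF rose by 1.40 ± 0.38 (adjusted p = 0.0382), a call lost without C 11, C 12 (0.137) or any WSD library but WSD 8, and the change was 0.90 without C 8, C 11 and C 12. ASPM, which holds the spindle poles, was at 57.1 to 118 CPM in WSD embryos (median 73.9), against 15.2, 27.4, 42.3, 27.9 and 0.104 CPM in controls. It did not overlap, and its change of 1.85 ± 0.59 did not pass (adjusted p = 0.0734).

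None of the 38 mitotic genes fell (0 called). The others that rose were SMC2 and SMC4 (condensin), TPX2 and TTK (spindle assembly and its checkpoint) and ANAPC1 (the ligase that ends mitosis), by 0.87 to 1.55. Without C 12 the call held for CKAP5 alone, and the adjusted p of the 7 then ran from 0.0273 to 0.155. In 9 of the 38 every WSD library lay above every control (0.459% over all genes). Among them ASPM, the kinesins KIF11, KIF20A and KIF23 and the topoisomerase TOP2A did not pass (adjusted p 0.063 to 0.108). The list's median log2 change was 0.83, and 0.44 without C 8, C 11 and C 12, where 32 of 38 lay above 0. Summed over the list, levels were 6222 to 8103 CPM in WSD, against 4555, 5945, 4484, 3006 and 1388 CPM in controls, so no control reached the lowest WSD library.

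Genes of the nuclear pore were also among the risen. NUP155, a scaffold nucleoporin, was at 179 to 352 CPM in WSD embryos (median 295), against 151, 62.6, 248, 85.2 and 56.3 CPM in controls. C 8 overlapped the WSD range. NUP155 rose by 1.24 ± 0.28 (adjusted p = 0.0136; 0.0623 without C 12), and the change was 1.44 without C 8, C 11 and C 12. NUP160, of the Y-shaped pore complex, rose by 0.77 (adjusted p = 0.0352), a call lost without C 8, C 11 (0.0876), C 12 (0.0546) or any WSD library but WSD 3 and WSD 6. Of 39 tested members 2 rose and 0 fell (0.466% and 3.6% over all genes). The list's median was 0.49, or 0.41 without C 8, C 11 and C 12. KPNB1 (importin beta), XPO7 and NUP188 did not overlap between groups and did not pass.

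Among chromatin genes TET1 (ENSMMUG00000023198), which oxidises 5-methylcytosine on the way to demethylation, was at 104 to 256 CPM in WSD embryos (median 152), against 78.8, 84.7, 51.5, 38.4 and 3.76 CPM in controls. The groups did not overlap, with C 12 far below the rest. TET1 rose by 1.64 ± 0.41 (adjusted p = 0.0255; 0.0304 without C 12 and 0.0539 without C 11), and the change was 0.99 without C 8, C 11 and C 12. DNMT3L, a cofactor of the de novo DNA methyltransferases, was at 658 to 1049 CPM in WSD embryos (median 836), against 1218, 1386, 2584, 435 and 4360 CPM in controls. Every control but C 11 was above the WSD range. DNMT3L fell by 1.21 on the log2 scale (adjusted p = 0.0383), a call lost without C 8, C 12 (0.317) or any WSD library. These were 2 calls among 31 tested modifiers of DNA and histones. The list's median was 0.08 (-0.03 with RLE size factors, 0.29 with library totals). RNF20, which ubiquitinates histone H2B, and NSD1, a histone H3 methyltransferase, were picked after their values were seen. Both rose (0.87 and 1.07) without overlap, with adjusted p of 0.0284 and 0.0496. Both calls were lost without C 11, C 12 or any of WSD 1, WSD 4 and WSD 7 (adjusted p up to 0.136).

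Lineage markers showed few calls of their own. Of 21 tested trophectoderm markers LRP2 rose and TFAP2A fell, and the list's median was 0.38, or 0.39 without C 8, C 11 and C 12. LRP2, megalin, an endocytic receptor for lipoproteins and vitamins, was at 273 to 1050 CPM in WSD embryos (median 627), against 26.8, 285, 257, 286 and 87.6 CPM in controls. C 2 and C 11 overlapped with the lowest WSD library. LRP2 rose by 1.82 ± 0.49 (adjusted p = 0.035), a call lost without C 12 (0.146) or any of WSD 1, 3, 6, 7, 9 and 10. Its change was 2.11 without C 8, C 11 and C 12. TFAP2A, a trophoblast transcription factor, was at 22.7 to 87.8 CPM in WSD embryos (median 38.9), against 27.5, 46.9, 1147, 521 and 1161 CPM in controls. It fell by 3.65 (adjusted p = 0.0133; 0.0739 without C 12). Of 23 epiblast markers only DNMT3L passed, and the list's median was 0.64 (0.43 without C 8, C 11 and C 12). Of 21 primitive endoderm markers LAMB1 and LAMC1 rose, and TTR and FST fell (without C 11, 0.291 for TTR; without C 12, 0.0573 for FST). The list's median was -0.68, and 0.75 without C 8, C 11 and C 12.

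The laminin chains are secreted into the first basement membrane. LAMC1 (ENSMMUG00000015084) was at 409 to 715 CPM in WSD embryos (median 505), against 265, 269, 278, 258 and 41.9 CPM in controls. The groups did not overlap, and controls other than C 12 differed little. LAMC1 rose by 1.24 ± 0.35 (adjusted p = 0.0425), a call lost without C 11, C 12 (0.103) or any WSD library, and the change was 1.00 without C 8, C 11 and C 12. LAMB1 was at 303 to 898 CPM in WSD embryos (median 475), against 126, 288, 312, 397 and 93.6 CPM in controls. C 8 and C 11 overlapped with the lower WSD libraries. LAMB1 rose by 1.10 ± 0.31 (adjusted p = 0.0436), a call lost without C 1, C 12 (0.161) or any WSD library but WSD 9, and the change was 1.35 without C 8, C 11 and C 12. The 19 tested genes of basement membrane and matrix had a median of -0.28 with all controls and of 1.24 without C 8, C 11 and C 12. The list summed to 1308 to 4306 CPM in WSD, against 492, 2024, 2427, 20285 and 202 CPM in controls.

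NLRP9 (ENSMMUG00000029506), a maternal-effect gene family member expressed in oocytes, was at 30.9 to 125 CPM in WSD embryos (median 52.1), against 14.3, 19.2, 2.9, 0.412 and 2.14 CPM in controls. No control reached the WSD range. NLRP9 rose by 2.99 ± 0.81 (adjusted p = 0.0352), a call lost without C 8, C 11, C 12 (0.138), WSD 7, WSD 9 or WSD 10, and the change was 1.91 without C 8, C 11 and C 12. It was the 1 call among 21 tested oocyte transcripts. Their median was 0.76, or 0.34 without C 8, C 11 and C 12. Their summed level was 12398 to 25430 CPM in WSD, against 14008, 14157, 3912, 597 and 460 CPM in controls, so C 1 and C 2 lay within the WSD range.

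Stress signalling genes led the falls. The PERK arm of the unfolded protein response slows translation and, through ATF4, raises DDIT3 (CHOP) when proteins misfold or amino acids run short. CEBPB (ENSMMUG00000045219), a transcription factor of stress and inflammation, was at 6.24 to 11.2 CPM in WSD embryos (median 8.09), against 19.1, 17.3, 279, 95.6 and 312 CPM in controls. Every control lay above every WSD library, C 1 and C 2 included. CEBPB fell by 4.10 ± 0.61 on the log2 scale (adjusted p = 0.00236), a 17.1-fold lower level, and the change was -1.09 without C 8, C 11 and C 12. DDIT3 (ENSMMUG00000011286) was at 9.68 to 27.7 CPM in WSD embryos (median 13.8), against 11, 21.9, 268, 302 and 8642 CPM in controls. C 1 and C 2 lay within the WSD range. DDIT3 fell by 6.92 ± 1.03 (adjusted p = 0.00236), and the change was -0.09 without C 8, C 11 and C 12.

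Over all genes 3.6% fell and 0.466% rose. Of 21 tested genes of the PERK, ATF4 and CHOP branch 9 fell and 0 rose (EIF2AK3, ATF4, DDIT3, ATF3, TRIB3, PPP1R15A, CEBPB, CEBPG and GADD45A). Their median log2 change was -1.63, and 0.24 without C 8, C 11 and C 12. Without C 12 the calls held for EIF2AK3, DDIT3 and CEBPB, and the others had adjusted p of up to 0.695. The list summed to 1354 to 2478 CPM in WSD, against 1697, 1688, 3433, 4306 and 21998 CPM in controls. Of 26 genes of endoplasmic reticulum chaperones and degradation 4 fell (DNAJB9, XBP1, HERPUD1 and HYOU1), and their median was -0.63 and then 0.08. All 4 calls were lost without C 12. Of 20 aminoacyl-tRNA synthetase genes AARS1 and SARS1 fell, both led by C 12 at 5345 and 3740 CPM and both lost without it.

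SQSTM1 (ENSMMUG00000021055), the p62 adaptor that brings cargo to autophagosomes, was at 75.6 to 141 CPM in WSD embryos (median 99.7), against 109, 99.5, 2021, 728 and 1091 CPM in controls. C 1 and C 2 lay inside the WSD range. SQSTM1 fell by 2.99 ± 0.48 (adjusted p = 0.00372), and the change was -0.02 without C 8, C 11 and C 12. CDKN1A, the p21 inhibitor of cell division, was at 11.6 to 121 CPM in WSD embryos (median 36.6), against 54.5, 85.4, 563, 1436 and 4135 CPM in controls. It fell by 4.73 ± 0.83 (adjusted p = 0.00474), and the change was -0.56 without C 8, C 11 and C 12. The 5 calls of the AP-1 and immediate early list (JUNB, IER5, KLF10, ZFP36 and MAFF, of 19 tested) and 5 of the autophagy list (SQSTM1, GABARAP, MAP1LC3B, WIPI2 and NBR1, of 26) were all falls. So were 4 of 26 p53 targets and apoptosis genes (MDM2, BBC3, AEN and XIAP) and 3 of 17 inflammation genes (RELA, IL1RN and CCRL2). Medians were -1.37 for the AP-1, -0.60 for the autophagy, -0.58 for the p53 and -0.79 for the inflammation list, and -0.04, -0.10, -0.32 and 0.22 in the same order without C 8, C 11 and C 12. On the mean log2 CPM of its members, the p53 list lay between 4.09 and 4.71 in WSD, against 4.73, 4.82, 4.77, 4.77 and 4.95 in controls, so all 5 controls were above the WSD range, C 1 by little. That separation depends on the measure. Summed, the p53 list was at 896 to 1834 CPM in WSD, against 2357, 1508, 1714, 1224 and 3333 CPM in controls. By the sum C 2, C 8 and C 11 lay within the WSD range. Without C 12, 3 of these 17 calls held (JUNB, SQSTM1 and CCRL2).

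Other fallen genes with small p were CCRL2, a chemerin receptor, CD55, which protects cells from complement, the E3 ligase NEURL1, PDLIM2, IFRD1, IQCD, TCP11L2, ZNF280A and RSRP1. CCRL2 was at 0 to 0.0522 CPM in WSD embryos, against 0, 0.585, 19.7, 26.3 and 261 CPM in controls. NEURL1 was at 0.493 to 2.09 CPM in WSD embryos, against 2.35, 0.065, 1957, 453 and 687 CPM in controls. Both thus rested on C 8, C 11 and C 12. IQCD differed in that all 5 controls (17.6, 23.4, 234, 167 and 230 CPM) lay above the highest WSD library at 17.2 CPM, C 1 by little. Its change was still -3.37 with all controls and -0.65 without C 8, C 11 and C 12. The calls of ZNF280A, RSRP1 and IFRD1 were lost without C 12, at adjusted p of 0.0559, 0.163 and 0.0573.

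**Figure D3:**
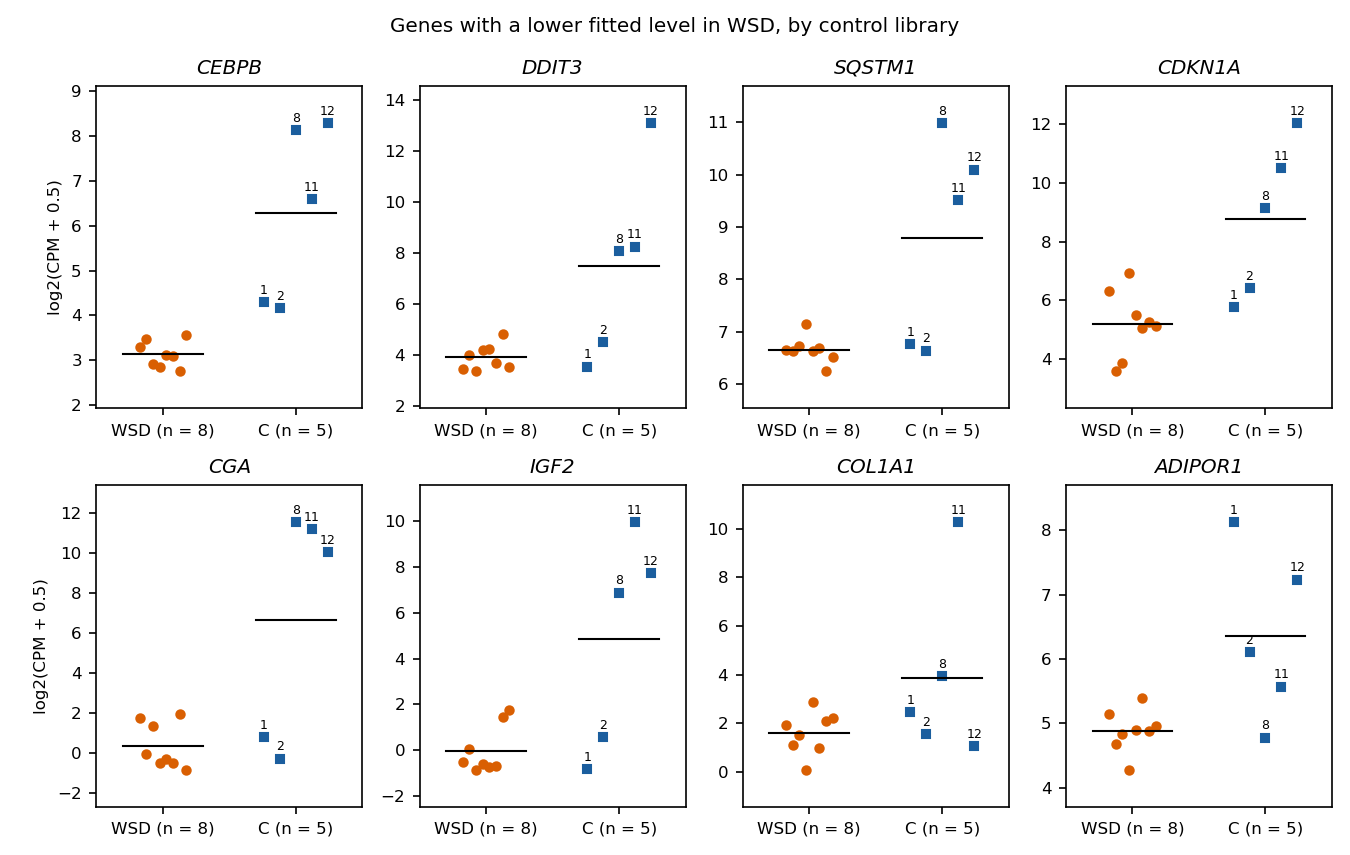
Level on the log2(CPM + 0.5) scale of 8 genes in each of the 8 WSD (circles) and 5 C libraries (squares, numbered by replicate), with the group mean as a line. C 8, C 11 and C 12 lie high for CEBPB, DDIT3, SQSTM1, CDKN1A, CGA and IGF2, C 11 alone lies high for COL1A1, and C 1 is the highest control for ADIPOR1.

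CGA (ENSMMUG00000000222), the shared alpha subunit of the gonadotropins, was at 0.0547 to 3.34 CPM in WSD embryos (median 0.397), against 1.23, 0.325, 3025, 2400 and 1073 CPM in controls. It fell (adjusted p = 0.0191; 0.0632 without C 12). Of 17 tested syncytiotrophoblast and placental hormone genes 7 fell and 0 rose, the others being ERVFRD-1, ERVV-1, OVOL1, PGF, SDC1 and GDF15. Their median was -2.76, and 0.42 without C 8, C 11 and C 12. ERVFRD-1 and ERVV-1, envelope genes of endogenous retroviruses, kept their calls without C 12. Of 12 tested imprinted genes IGF2, CDKN1C and SLC22A18 fell, and the median was -0.61 and then 0.52. Of 24 implantation signals LIF, HBEGF, VEGFA, IL1RN and BMP4 fell, with medians of -2.28 and 0.21, and all 5 calls were lost without C 12. Of 18 Hippo pathway genes LATS2, CCN1 and CCN2 fell, with medians of -0.47 and 0.35, again lost without C 12. Of 19 hypoxia factors and targets VEGFA, BNIP3L, KDM3A and BHLHE40 fell, and none of the 4 calls held without C 12.

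Some calls rested on C 11, the library with high stromal and primitive endoderm sums. COL1A1, the main chain of fibrillar collagen, was at 0.541 to 6.84 CPM in WSD embryos (median 2.84), against 4.99, 2.41, 14.6, 1240 and 1.57 CPM in controls. It fell (adjusted p = 0.0191), and without C 11 the adjusted p was 0.812. The same held for VCAN, a matrix proteoglycan (0.434 without C 11), TTR, the carrier of thyroid hormone and retinol-binding protein made by visceral endoderm (0.291), the monocyte receptor CD14 (0.982, and 0.0551 without C 12) and NQO1, a quinone reductase (0.585). In C 11 TTR was at 2186 CPM, CD14 at 240 CPM and NQO1 at 322 CPM, against at most 2.3, 6.74 and 13.9 CPM in WSD libraries.

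Because the diet differed in fat, lipid genes were listed. Fatty acid oxidation genes showed 1 call among 30 tested and a median of -0.10 (-0.15 without C 8, C 11 and C 12), beside -0.12 and 0.06 for all genes. ACOX3 (ENSMMUG00000006234), a peroxisomal oxidase of branched-chain fatty acids, was at 37.2 to 82.2 CPM in WSD embryos (median 59.7), against 33, 36.5, 26.1, 25.1 and 29.7 CPM in controls. The groups did not overlap, though the nearest libraries nearly touched. ACOX3 rose by 0.99 ± 0.27 (adjusted p = 0.0355), a call lost without C 8, C 11, C 12 (0.102) or any WSD library but WSD 1 and WSD 8, and the change was 0.80 without C 8, C 11 and C 12. FABP5 (ENSMMUG00000064718), a cytosolic carrier of fatty acids whose reads may be shared with near-identical copies, was at 538 to 830 CPM in WSD embryos (median 682), against 455, 407, 267, 135 and 53.4 CPM in controls. All controls were below the WSD range. FABP5 rose by 1.39 ± 0.38 (adjusted p = 0.0382), a call lost without C 8, C 11, C 12 (0.108) or any WSD library but WSD 6, and the change was 0.70 without C 8, C 11 and C 12.

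Of 33 genes of fatty acid synthesis, uptake and droplets, FABP5 rose, and FADS2 and LPL fell. FADS2, a desaturase of polyunsaturated fatty acids, stood at 1485 CPM in C 11 alone, and its adjusted p was 0.642 without that library. Its call was also lost without C 12 (0.0573), WSD 7 or WSD 10. LPL, which frees fatty acids from lipoproteins, was at 0 to 2.5 CPM in WSD embryos, against 0.705, 0.325, 2.08, 12.9 and 57.7 CPM in controls, and lost its call without C 12 (0.317) or any WSD library but WSD 1. GPAM, which starts triglyceride synthesis, did not overlap (45.2 to 111 CPM in WSD, at most 40.6 CPM in C) and did not pass (1.53, adjusted p = 0.152). Over the list the median was -0.05 (0.06 with library totals), and 0.58 without C 8, C 11 and C 12. The 31 tested genes of cholesterol synthesis and uptake had a median of -0.03 (0.03 with library totals), and 0.50 without C 8, C 11 and C 12. CYP11A1 (ENSMMUG00000003239), which makes pregnenolone from cholesterol, was at 29.7 to 289 CPM in WSD embryos (median 194), against 432, 102, 2618, 806 and 834 CPM in controls. It fell by 2.40 ± 0.53 (adjusted p = 0.0133; 0.0571 without C 8), and C 2 lay within the WSD range. HSD17B2, which inactivates estradiol, was the other of the 19 tested steroid genes that fell (adjusted p = 0.0445; 0.672 without C 11). Their median was -0.85, or -0.15 without C 8, C 11 and C 12.

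ADIPOR1 (ENSMMUG00000007046), a receptor for adiponectin, the fat-cell hormone that raises fatty acid use through AMPK, was at 18.8 to 41.6 CPM in WSD embryos (median 29.1). Controls were at 279, 68.5, 26.9, 47 and 150 CPM. C 8 fell inside the WSD range, and the other 4 controls lay above it, C 1 highest. ADIPOR1 fell by 1.94 ± 0.38 on the log2 scale (3.85-fold lower, adjusted p = 0.00762), and kept its call without any single library. It passed in 18 of 21 alternative fits, but not with limma voom or with a block for replicate number. Without C 8, C 11 and C 12 the change was -2.52 (adjusted p = 0.00476). Of 33 tested genes of insulin, IGF and adipokine signalling IRS2, IGF2 and PRKAB1 fell as well. IRS2 and PRKAB1 lost their calls without C 12 (adjusted p = 0.386 and 0.845). The list's median was -0.47, and 0.31 without C 8, C 11 and C 12.

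Energy metabolism showed little that passed. HK2, the hexokinase that commits glucose to the cell, was at 479 to 968 CPM in WSD embryos (median 806), against 553, 351, 165, 28.6 and 82.5 CPM in controls. C 1 lay inside the WSD range. HK2 rose by 1.70 ± 0.44 (adjusted p = 0.0284; lost without C 12 at 0.109, WSD 7 or WSD 10), the 1 call among 23 glycolysis genes, and the change was 0.78 without C 8, C 11 and C 12. The glycolysis list's median was 0.39, and 0.22 without them. No member passed among 23 TCA cycle genes, 49 nuclear-encoded respiratory chain genes, 23 genes of mitochondrial dynamics, 25 transporters of glucose and amino acids, 32 proteasome subunits or 52 ribosomal protein genes. The respiratory chain list had a median of 0.09 with all controls and of -0.39 without C 8, C 11 and C 12, where 7 of 49 lay above 0. The medians with all controls and then without those 3 were 0.33 and 0.03 for the TCA cycle, 0.13 and -0.25 for mitochondrial dynamics and -0.29 and 0.56 for transporters. They were -0.04 and -0.29 for the proteasome (its first sign turns with the scaling) and -0.14 and -0.35 for ribosomal proteins. Citrate synthase (CS), the entry step of the TCA cycle, had the smallest p of its list (0.76 ± 0.25, adjusted p = 0.0848).

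Few calls came from the remaining lists. Of 22 heat shock and chaperonin genes HSP90AA1, a chaperone of kinases and receptors, rose by 0.87 (adjusted p = 0.0457; 0.161 without C 12). Of 32 repair genes the mismatch gene MSH6 rose by 1.40 (adjusted p = 0.0382; 0.1 without C 12), and its relative PMS2 fell by 1.92 on the log2 scale (adjusted p = 0.0479; 0.108 without C 12). C 8, at 262 CPM, was the highest control for PMS2. Of 23 antioxidant genes NQO1 and PRDX5, a mitochondrial peroxiredoxin, fell. PRDX5 was at 78.9 to 177 CPM in WSD embryos (median 114), against 142, 188, 189, 186 and 405 CPM in controls, so only C 1 overlapped. It fell by 0.91 on the log2 scale (adjusted p = 0.0248), a call lost without C 12 (0.161), WSD 7 or WSD 10.

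CLTC, the clathrin heavy chain of coated vesicles, was at 522 to 1041 CPM in WSD embryos (median 909), against 267, 377, 668, 497 and 187 CPM in controls. C 8 alone lay within the WSD range. CLTC rose by 1.08 ± 0.26 (adjusted p = 0.0185; 0.0906 without C 12), and the change was 1.41 without C 8, C 11 and C 12. In the same list of 28 genes SEC31A, of the COPII coat, fell (adjusted p = 0.0185; 0.227 without C 12). The list's median was -0.06, a sign that turns with the scaling, and 0.14 without C 8, C 11 and C 12. GRK6, a kinase that desensitises G protein-coupled receptors, was at 56.1 to 124 CPM in WSD embryos (median 80.5), against 42.2, 37.4, 48.6, 40.7 and 33.9 CPM in controls. All WSD libraries were above all controls, and the controls were close together. GRK6 rose by 1.00 ± 0.24 (adjusted p = 0.018; 0.069 without C 12), and the change was 1.05 without C 8, C 11 and C 12. SERINC5, a membrane protein, did not overlap either (110 to 173 CPM in WSD, at most 98.8 CPM in C) and rose by 1.08 (adjusted p = 0.0223; 0.0787 without C 12). PRSS23, a secreted serine protease, rose by 2.12 with C 2 inside the WSD range (adjusted p = 0.0219; 0.102 without C 12). Of genes at low level, FAM227A was at 0 to 1.6 CPM in WSD embryos and at 0 in all controls. Its 117 counts over the WSD group make it at least 20.1-fold higher, against a floor of 3 counts over the C group, and its call was lost without C 12 (adjusted p = 0.1). FAM161A, a centrosomal and ciliary protein, was at 15.2 to 31.2 CPM in WSD embryos and at most 10.9 CPM in C embryos, and rose by 1.76 (adjusted p = 0.0422). That call was lost without C 11, C 12 (0.15) or any WSD library. SLCO1A2, an organic anion transporter, did not overlap (31.6 to 125 CPM in WSD, at most 25.7 CPM in C) and did not pass (2.20, adjusted p = 0.063).

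**Figure D4:**
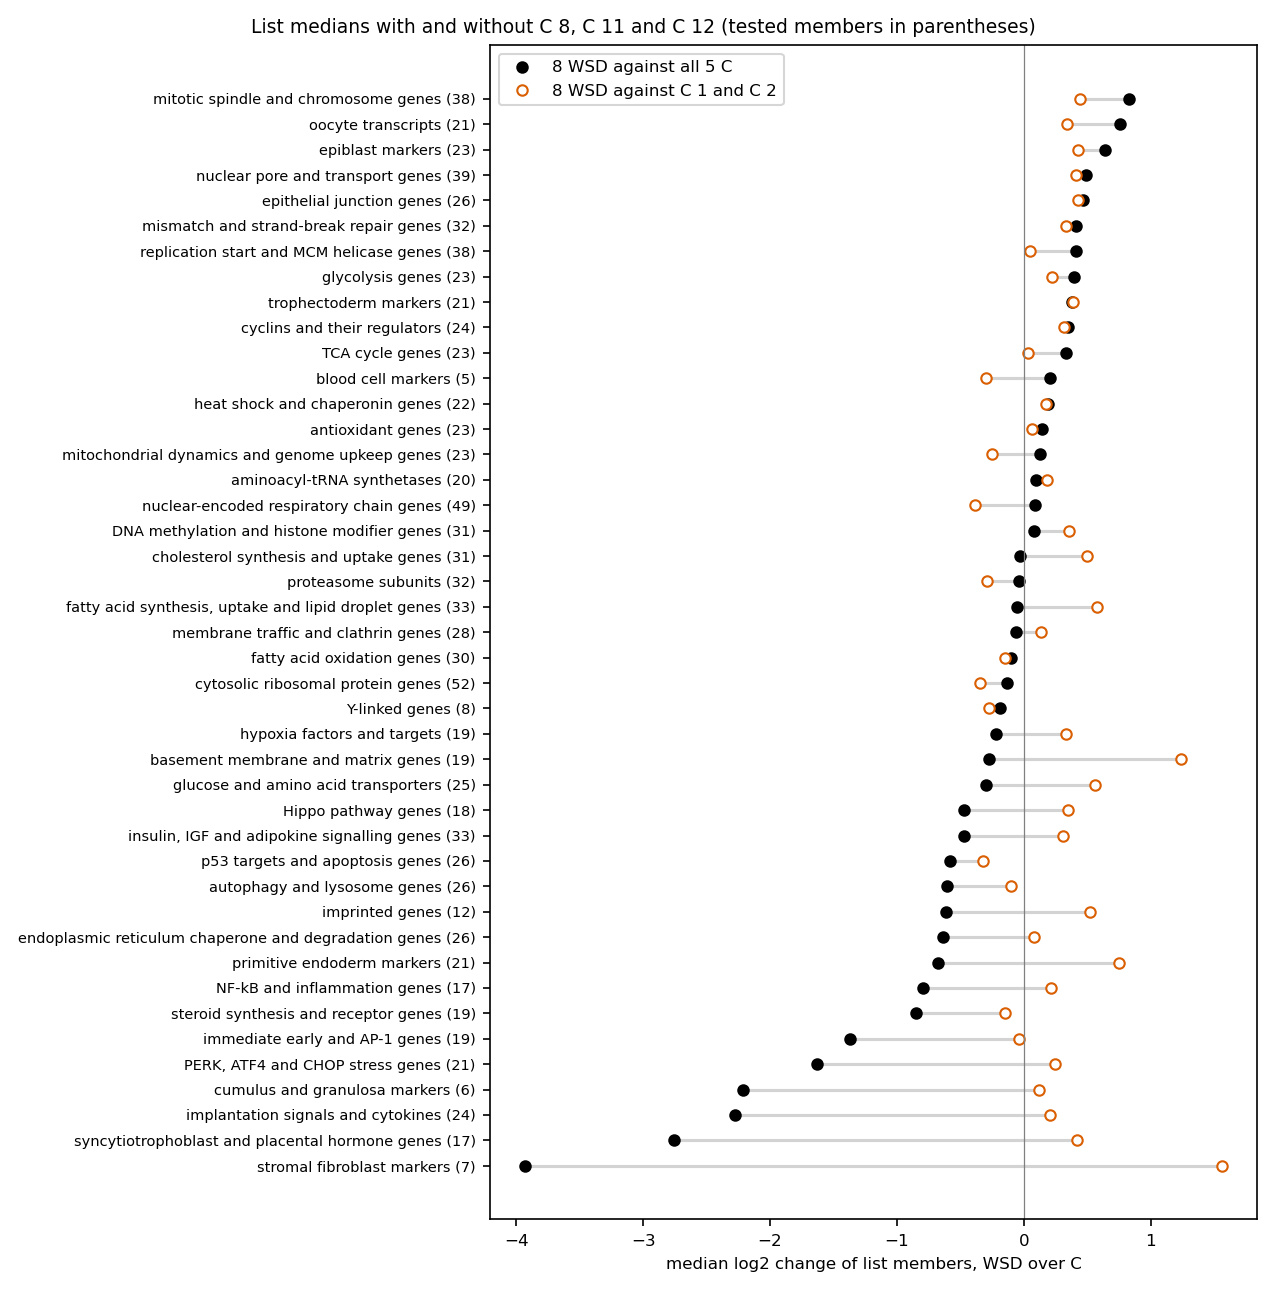
Median log2 change of the tested members of each list with at least 5 of them (horizontal axis, WSD over C), against all 5 controls (filled) and against C 1 and C 2 (open). The PERK, chaperone, p53, AP-1, NF-kB, autophagy, placental hormone and implantation lists lie between -2.76 and -0.58 against all controls and between -0.32 and 0.42 against C 1 and C 2, while the mitotic, nuclear pore and junction lists lie between 0.41 and 0.83 in both.

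Some genes were lower in every WSD library than in any control. GATAD1 (ENSMMUG00000010104), a zinc finger protein that binds chromatin, was at 7.37 to 36.3 CPM in WSD embryos (median 24.7), against 54.6, 53, 43.7, 68.3 and 75.1 CPM in controls. The 5 controls lay close together. GATAD1 fell by 1.31 ± 0.29 (adjusted p = 0.014; 0.0632 without C 12), and the change was -1.16 without C 8, C 11 and C 12. COQ10B, a binding protein for coenzyme Q in the respiratory chain, was at 33.1 to 67.2 CPM in WSD embryos (median 49.8), against 89.1, 88.3, 76.1, 91.2 and 104 CPM in controls. It fell by 0.79 ± 0.21 (adjusted p = 0.034; lost without C 12 at 0.106, C 11, or any of WSD 1, 3, 7, 9 and 10), with a change of -0.76 without C 8, C 11 and C 12. For both, the change was thus nearly as large with 2 controls. SENP3, a SUMO protease of the nucleolus, was at 7.11 to 28.1 CPM in WSD embryos (median 19.5), against 42.5, 35.2, 254, 45.8 and 243 CPM in controls. It fell by 2.63 ± 0.50 (adjusted p = 0.00667), a call kept without any single library, and the change was -0.94 without C 8, C 11 and C 12. SENP3 passed in 17 of 21 alternative fits, but not with limma voom or with a block for replicate number. Nor did it pass without C 8, C 11 and C 12 (adjusted p = 0.806). The other leading genes of this kind were PCGF1 (a Polycomb subunit), RILPL1, the clock gene PER1, UQCC6 (assembly of respiratory complex III), the mitochondrial ubiquitin ligase MARCHF5 and EIF1 (start codon choice, with possible near-identical copies). They fell by 1.63 to 3.05 and lost their calls without C 12. Their changes without C 8, C 11 and C 12 ran from -1.59 to -0.41.

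Among WSD embryos the 10 genes that varied most were RPS4Y2, DDX3Y, RPS4Y1, EIF1AY and TBL1Y, which are Y-linked, and CYP1A1, CD36, MSANTD5, HSD3B1 and ATP12A. DDX3Y, an RNA helicase, was below 1 CPM in WSD 1, WSD 3 and WSD 6 and at 167 to 256 CPM in the other 5 libraries. CD36, a scavenger receptor that takes up long-chain fatty acids, was at 367, 604 and 662 CPM in WSD 1, WSD 3 and WSD 6, and at 1.64 to 19 CPM in the other 5. HSD3B1, which makes progesterone from pregnenolone, was at 100, 275 and 415 CPM in WSD 1, WSD 3 and WSD 6, and at 0.11 to 17.2 CPM in the other 5. The 3 libraries with low Y-linked levels were thus those with the most CD36 and HSD3B1. Among controls CD36 was at 0.587, 26, 591, 15.5 and 0.261 CPM, and HSD3B1 at 0.235, 33.6, 573, 498 and 219 CPM. C 8, with high Y-linked levels, was high in both, and C 12, with low ones, had 0.261 CPM of CD36. These relations were seen in the data and were not tested.

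ATP12A, a proton and potassium pump, was at 2.12 CPM in WSD 8, 18.7 CPM in WSD 4 and 322 to 1171 CPM in the other 6 WSD libraries, against 2.76, 469, 407, 1.05 and 0.313 CPM in controls. CYP1A1, a cytochrome P450 that oxidises aromatic compounds, was at 590 CPM in WSD 6 and at 0.104 and 0.109 CPM in WSD 7 and WSD 10. MSANTD5 was at 185 CPM in WSD 1, 25 CPM in WSD 7 and at most 0.657 CPM in the other WSD libraries. None of these genes passed between WSD and C.

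**Figure D5:**
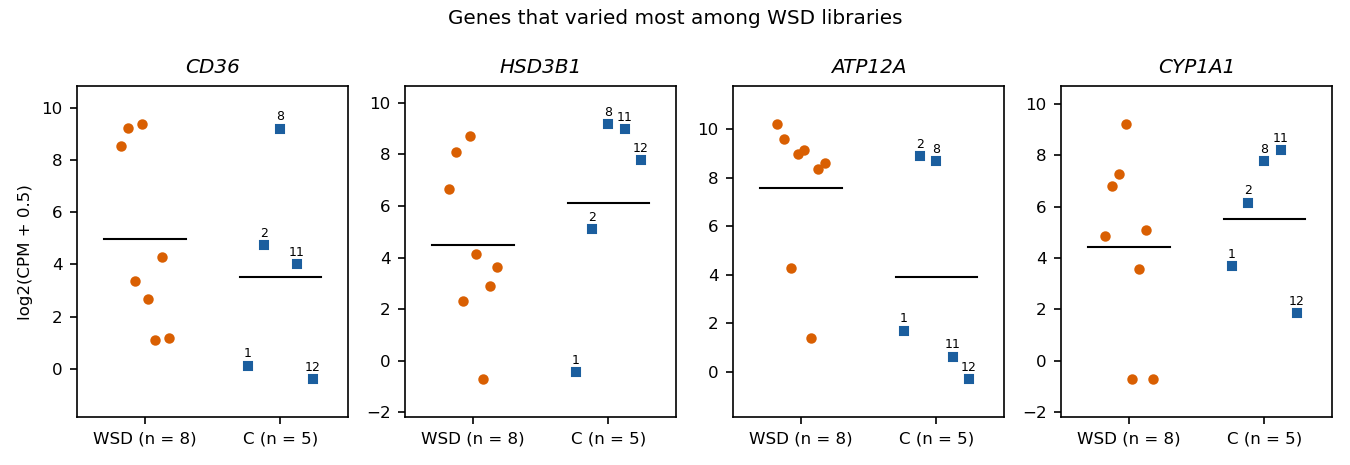
Level on the log2(CPM + 0.5) scale of 4 genes in each of the 8 WSD (circles) and 5 C libraries (squares, numbered by replicate), with the group mean as a line. WSD libraries span 1.64 to 662 CPM for CD36 and 0.11 to 415 CPM for HSD3B1, and the controls spread as widely.

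The testosterone group (T) offers a second set of embryos. T females carried testosterone implants and ate the standard chow, and 10 libraries were fitted. No gene passed between WSD and T by edgeR (0 called, 0% of genes, smallest adjusted p = 0.446), and 237 had an unadjusted p under 0.05. T and WSD were compared with the same 5 controls, so the following changes share their reference. The log2 change of CKAP5 was 1.15 in WSD and 1.08 in T, and for POLA1 1.86 in WSD and 2.01 in T. For TET1 it was 1.64 in WSD and 1.30 in T, where it did not pass (adjusted p = 0.0624). For CEBPB it was -4.10 in WSD and -2.98 in T. WSD and T libraries covered overlapping ranges for these genes, as for CKAP5 at 136 to 237 CPM in WSD and 123 to 233 CPM in T embryos.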

How the data were processed

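Raw read counts of 35395 genes in 25 libraries were deposited by the authors in 1 table, made with FastQC 0.11.8, Trimmomatic 0.39 and STAR 2.7.0 on build Mmul_10, per the submitters' processing notes. No source used here gives the counting tool, annotation release or strand setting, so overlapping genes and near-identical copies (ribosomal, Y-linked and FABP5 genes among them) may share reads. Symbols matched 24173 gene IDs. No coordinates are given, since the annotation at hand is of another build. Here, genes that reached 1 CPM in 5 or more libraries (13934) were scaled by TMM and fitted with edgeR 4.0.16 (R 4.3.3) over the 4 groups and 25 libraries, with robust quasi-likelihood tests of WSD against C and Benjamini-Hochberg adjustment at 0.05. The biological coefficient of variation was 0.9. SE is the log2 change divided by the root of F. In the shallowest library 1 CPM is 15.0 counts. No library repeated another (smallest chi-square per gene 70.6 over 28 WSD pairs and 220 over 10 C pairs). Scripts were tested on simulated data with less spread than the real libraries, equal in every group. That test does not show how often calls are wrong in these data. Named genes are the 15 rising and 15 falling genes with the smallest p, the 10 higher and 10 lower genes with the widest gap between groups (mean of at least 10 CPM), list members that passed or up to 4 with the smallest p, the 10 most variable among WSD libraries (mean of at least 10 CPM) and defining markers. The 44 lists (1183 genes, 1033 tested, 97 called) and the members were chosen with earlier results of these data known. Some named results are not reported here. Alternatives included DESeq2 1.42.0, limma 3.58.1 voom with quality weights, other scalings, no filter, WSD and C libraries alone, and leaving out libraries.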

Additional observations from a re-analysis of the deposited data

Results flagged for a closer look

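In 94 groups of values, 1 library lay far from the others of its group in 8, by the gap to its nearest neighbour relative to the range. Chance gives such a library in about 1 of 20 independent groups not chosen for their values. The groups here include 46 genes chosen from these same libraries, so that rate is no benchmark for them. All values are log2(CPM + 0.5). In 7 of the 8 groups the library was C 12. It was low for TET1 (2.09), LAMC1 (5.41) and ASPM (-0.73), and high for RSRP1 (12.18), PER1 (7.65), MARCHF5 (8.12) and EIF1 (12.2). In the WSD group it was WSD 6, high for SMC2 (7.89).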

How the results depend on the processing

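With 567 genes called in all, library totals gave 321 (271 of them lower in WSD), DESeq2 1171 (195 higher, 976 lower), limma voom with quality weights 0 (1165 at an unadjusted p under 0.05), and WSD and C libraries alone 30 (2 higher, 28 lower). Without the low-count filter 35 genes were higher. Without C 8, C 11 and C 12, 1 gene was called (0 higher, 1 lower). The 97 called list members became 64 without the filter, 152 with DESeq2, 0 with voom, 12 with WSD and C alone and 1 without C 8, C 11 and C 12. Leaving out 1 library gave 57 (without C 12) to 1103 (without C 1) calls, 7 to 184 higher, 50 to 919 lower and 22 to 154 list members. Genes without overlap then numbered 111 to 299 (70 to 179 higher, 37 to 120 lower), and 1065 (463 higher, 602 lower) without C 8, C 11 and C 12, where fewer libraries can overlap. Results for WSD against T, total counts and genes detected kept their side of the threshold. With the replicate block 0 genes were called (0 higher, 0 lower, 0 list members, 566 at an unadjusted p under 0.05). Shared numbers gave correlations of deviations of -0.09 (number 1) and -0.30 (number 8). Other pairs ran from -0.37 (C 1 and WSD 3) to 0.40 (C 1 and WSD 8). These values cannot show whether same-numbered samples share more than a number. Under the block GADD45A (0.0524), AEN (0.17) and HBEGF (0.75) turned.

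Without C 8, C 11 and C 12 these log2 changes turned above 0: HYOU1 0.0436, CD55 0.0448, NBR1 0.0451, ATF4 0.0453, BNIP3L 0.0456, NEURL1 0.0551, ZFP36 0.10, GDF15 0.11, TRIB3 0.12, LATS2 0.17, SARS1 0.17, PDLIM2 0.18, VCAN 0.22, EIF2AK3 0.24, OVOL1 0.28, SDC1 0.28, XIAP 0.33, TFAP2A 0.34, CDKN1C 0.42, AARS1 0.53, CCN2 0.57, CGA 0.59, IGF2 0.62, HERPUD1 0.64, VEGFA 0.73, ZNF280A 0.76, MAFF 0.80, ATF3 0.89, KDM3A 0.90, FADS2 0.99, SLC22A18 1.00, PMS2 1.02, CCN1 1.17, IRS2 2.54 and IL1RN 2.81. AARS1 also turned with voom (0.22) and, over single libraries left out, ran from -2.15 to 0.13 (without C 12). The cause was not tested. Of 121 named genes 103 lost their call but kept their sign with WSD and C alone, and 118 did with voom. Without C 12 this held for 92, and without C 8 for 13. In addition 1 turned with voom and 1 without C 12.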
